A study of Mus musculus with 12 samples.

Results

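The genes described are 9 scaffold proteins of the postsynaptic density, Dlg2, Dlg4, Dlgap1, Dlgap2, Dlgap3, Shank1, Shank2, Shank3 and Homer1, which were taken by symbol from the 15759 rows of a table of normalized counts. All 9 were in the table, and all 9 passed the minimum mean of 10 normalized counts, as did 15369 rows in all. Poly-adenylated RNA was sequenced from whole cortex and whole cerebellum of SCA1 KI mice and WT littermate controls at 12 weeks of age, with 3 libraries for every combination of region and genotype and 12 in all. SCA1 KI mice (Atxn1 154Q/2Q) model spinocerebellar ataxia type 1 and carry 154 glutamine codons in 1 Atxn1 allele and 2 in the other, under the endogenous regulators of the gene, so that no promoter restricts the expanded allele to one cell type. WT mice carry no expanded allele, and all mice were C57BL/6J. The labels list males, whereas the methods of the study combine both sexes. The study describes the cerebellar libraries as an earlier data set, so region and data set cannot be told apart.

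The postsynaptic density is the protein mesh under the membrane of excitatory synapses that holds glutamate receptors in front of the release site and couples them to signalling enzymes and to actin. Its scaffolds form layers. Dlg4 (PSD-95) and Dlg2 (PSD-93) are membrane-associated guanylate kinases that bind NMDA receptors and AMPA receptor partners just under the membrane, the Dlgap proteins (SAPAP or GKAP) bind the guanylate kinase domain of the Dlg proteins and the PDZ domain of the Shank proteins, and the Shank proteins bind Homer1, which reaches to group I metabotropic glutamate receptors and to inositol trisphosphate receptors. In the cortex these scaffolds belong chiefly to the dendritic spines of pyramidal neurons, and in the cerebellum to Purkinje cell spines and to the dendrites of granule cells, with members used to different degrees.

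Reads on genes numbered 29520855 to 51311309 per library. Summed markers of granule cells and of cortical excitatory neurons matched the labelled regions. Cerebellar granule cell markers summed to 160523 to 228633 normalized counts in the cerebellum and to 3795 to 5398 in the cortex. Markers of cortical excitatory neurons summed to 63150 to 95187 in the cortex and to 18996 to 28535 in the cerebellum. On that list Tbr1, a transcription factor, spanned 5676 to 8222 in cortex libraries against 23 to 46 in cerebellum libraries. Neurod2 on the same list went the other way, at 3243 to 4636 in the cortex and 4118 to 5931 in the cerebellum. Forebrain interneuron markers also summed higher in the cerebellum (44437 to 54794) than in the cortex (26560 to 39361). Libraries carry a letter in the cortex (WT B, C and D, SCA1 KI A, E and F) and a number in the cerebellum (WT 2, 4 and 6, SCA1 KI 1, 3 and 5). In whole tissue, fewer cells of a type and less RNA per cell cannot be told apart, which holds for every difference below.

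RefSeq promoter windows (GRCm38.p6, the 250 bases before a start site) were given for 6 of the 9 genes, with 12 windows, and not for Shank1, Shank2 or Dlgap2. Because several scaffolds moved together in the cortex, these windows were searched on both strands for sites of activity-regulated factors, for general GC boxes and for the octamer of Capicua (CIC), a repressor that binds ataxin-1. The 2 windows below hold the most sites, and neither overlaps an exon of GENCODE vM21. For Homer1, on the plus strand at chr13:93303507-93303756, capitals mark the cAMP response element half-site TGACG, a motif added after the window had been read.

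Homer1: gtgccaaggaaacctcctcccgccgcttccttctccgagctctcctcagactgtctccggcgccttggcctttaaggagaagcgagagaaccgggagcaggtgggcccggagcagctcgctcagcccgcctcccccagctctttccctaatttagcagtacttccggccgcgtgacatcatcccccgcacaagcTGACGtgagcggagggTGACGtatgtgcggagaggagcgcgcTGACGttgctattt

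For Shank3, on the plus strand at chr15:89499358-89499607, capitals mark 4 GC boxes (GGGCGG) and the EGR site GCGTGGGCG, all read on the opposite strand.

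Shank3: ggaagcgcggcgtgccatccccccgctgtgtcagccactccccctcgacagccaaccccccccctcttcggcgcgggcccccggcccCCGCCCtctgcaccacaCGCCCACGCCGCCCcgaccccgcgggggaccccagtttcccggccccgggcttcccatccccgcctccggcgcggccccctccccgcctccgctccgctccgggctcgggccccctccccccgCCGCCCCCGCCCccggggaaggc

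The Homer1 window held 3 half-sites, which began 56, 40 and 14 bases before the start. At least 3 were held by 0.688% of 32851 promoter windows. The motif and this count were both taken from the window itself, so the share does not test for enrichment. The full element TGACGTCA, which 1.55% of windows held, was in none of the 12. The Shank3 window held an EGR site, which began 146 bases before the start, and 0.536% of windows held such a site. Its 4 GC boxes, one of which shares a base with the EGR site, were matched in number by 4.09% of windows. The Shank3 window was 82.4% GC, against a median of 52.4% over all windows, and both motifs are rich in G and C. The share among windows of like GC content was not counted. A CIC octamer, TGAATGAA, lay 98 bases before an internal Dlgap1 start, in exonic sequence at chr17:70561641-70561664 on the plus strand, and was the only one in the 12 windows. It is shown in capitals, where it overlaps a CACGTG E-box that begins 102 bases before that start.

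Dlgap1: gcttcacgTGAATGAAactggaaa

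The octamer was present in 1.08% of all windows, and neither the variant TGAATGGA (1.01% of windows) nor the AP-1 site TGANTCA (6.75%) was found in any window of the 6 genes. These are matches of letters, and binding was not measured.

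To ask how the scaffolds of excitatory synapses differ in the SCA1 KI cortex, log2(normalized count + 1) was compared between genotypes with limma. DEGs were genes with a Benjamini-Hochberg adjusted p under 0.05 and an absolute log2 fold change (LFC) over 0.25. Of the 9 scaffolds, 7 fell in the SCA1 KI cortex, against 10.8% of all tested genes that were DEGs with lower levels, and 0 rose, against 4.82%. The highest SCA1 KI library was under the lowest WT library for 9 of 9 scaffolds, a pattern seen in 18% of all genes. The median LFC of the scaffolds was −0.65 and that of all tested genes −0.0028. Levels in the SCA1 KI cortex ranged from 48.9% of WT for Homer1 to 87.1% for Dlg2.

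**Figure D1:**
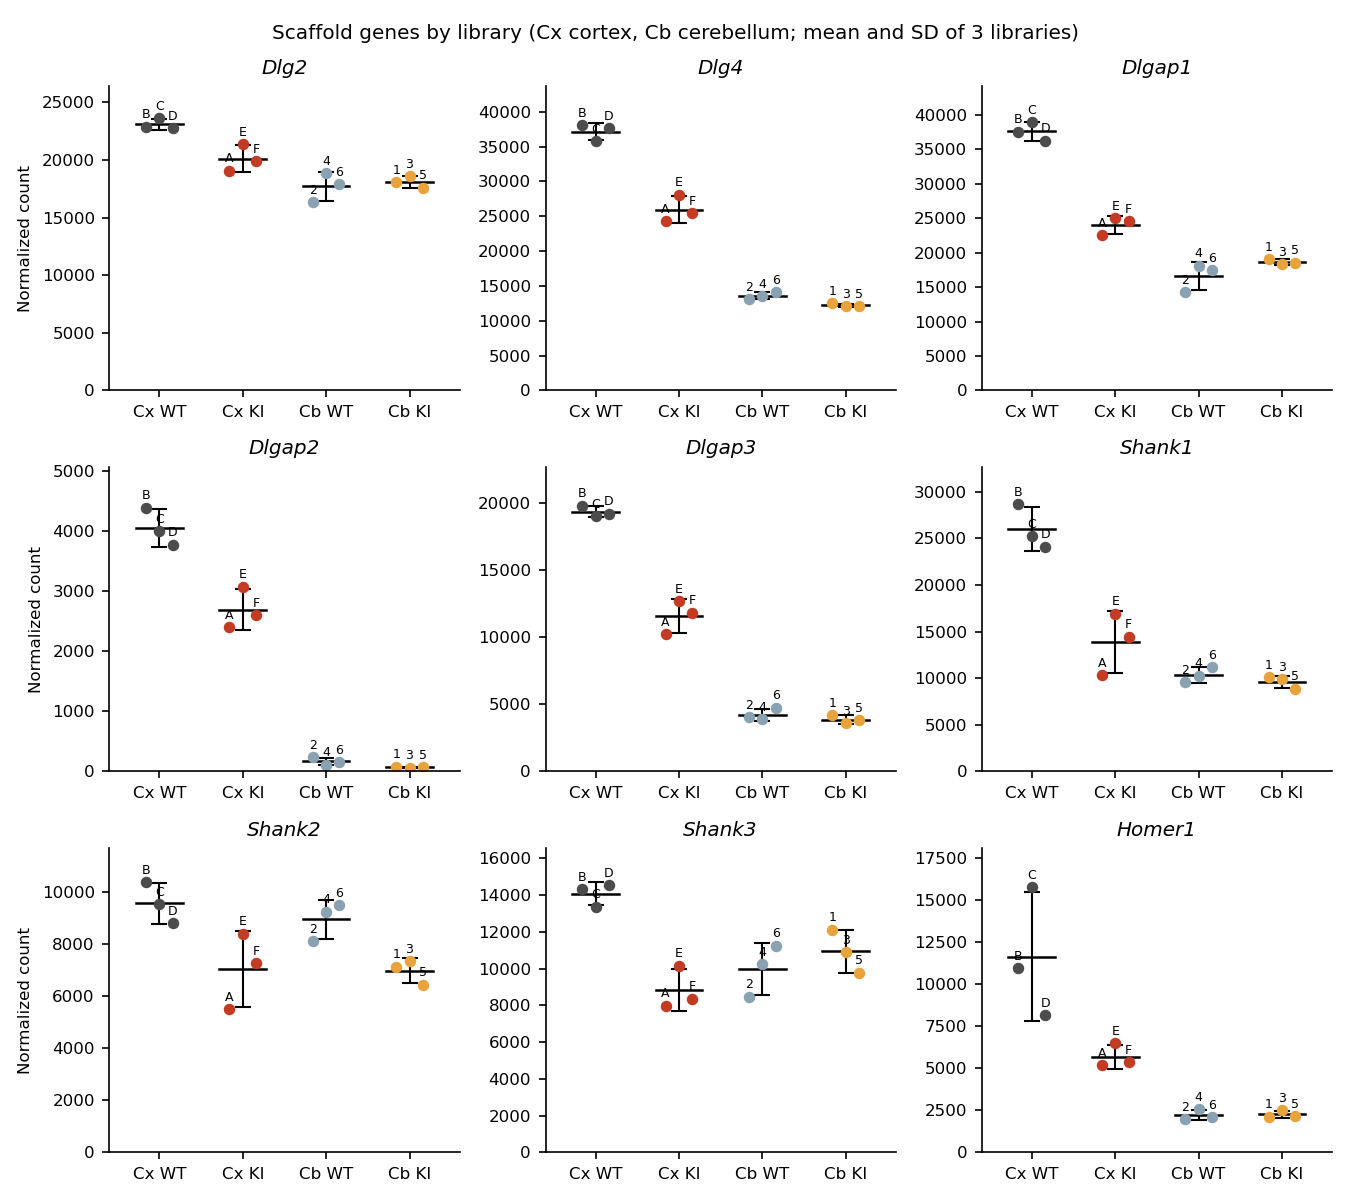
Normalized counts of the 9 scaffold genes (vertical axes, from 0) in each of the 12 libraries, grouped as cortex (Cx) and cerebellum (Cb) of WT and SCA1 KI mice. Points are libraries with their letter or number, the long bar is the mean and the error bar the SD of 3 libraries. In the cortex the 3 SCA1 KI points lie below the 3 WT points in all 9 panels, whereas in the cerebellum 3 genes (Dlg4, Shank2 and Dlgap2) have all SCA1 KI points below WT.

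Among the membrane-associated guanylate kinases, Dlg4, which encodes the most abundant scaffold of the excitatory postsynaptic density, stood at 38101, 35743 and 37648 normalized counts in WT cortex libraries B, C and D and at 24350, 28127 and 25414 in SCA1 KI libraries A, E and F. The highest SCA1 KI library was well below the lowest WT library. Dlg4 fell to 69.9% of WT (LFC −0.52, SE 0.06, adjusted p = 1.23e-04). Dlg2, its close relative, stood at 22898, 23647 and 22726 in WT and at 19076, 21354 and 19907 in SCA1 KI. The groups did not overlap, but the step was small, with an LFC of −0.20 (SE 0.06, adjusted p = 0.0461) that stayed under the limit on the LFC, so Dlg2 was not a DEG. It was the scaffold with the smallest difference in the cortex.

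The Dlgap proteins link the guanylate kinases to the Shank layer. Dlgap1 stood at 37583, 38965 and 36280 in WT cortex and at 22517, 25000 and 24557 in SCA1 KI cortex. The groups were far apart and varied little within themselves, and Dlgap1 fell to 63.9% of WT (LFC −0.65, SE 0.08, adjusted p = 1.85e-04). Dlgap3, the family member whose loss in mice gives compulsive grooming, stood at 19782, 18973 and 19187 in WT and at 10227, 12685 and 11820 in SCA1 KI. Its WT libraries were close together and far above all SCA1 KI libraries, and it fell to 59.9% (LFC −0.74, SE 0.09, adjusted p = 1.56e-04). Dlgap2 had 4388, 3995 and 3773 in WT and 2400, 3076 and 2602 in SCA1 KI. These groups did not overlap, yet the LFC of −0.59 (SE 0.20) missed the threshold with an adjusted p of 0.0598. In this fit the spread of Dlgap2 in the cerebellum, where its counts were low, enters the error, and with the cortex fitted on its own Dlgap2 passed (adjusted p = 0.00753), as it did with edgeR (0.0219) and DESeq2 (0.00624) on recovered reads. It was called in 5 of 21 fits in all, with adjusted p up to 0.161.

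The Shank proteins are the master scaffolds of the deep layer. Shank1, the member most restricted to spines, stood at 28703, 25232 and 24130 in WT cortex and at 10355, 16925 and 14463 in SCA1 KI cortex. Every SCA1 KI library was below every WT library, and library A was by far the lowest. Shank1 fell to 53.5% of WT (LFC −0.93, SE 0.14, adjusted p = 6.81e-04). Shank3, whose human counterpart is lost in Phelan-McDermid syndrome, stood at 14313, 13372 and 14559 in WT and at 7990, 10167 and 8360 in SCA1 KI. The groups lay well apart, and Shank3 fell to 62.8% (LFC −0.68, SE 0.11, adjusted p = 0.00137). Shank2 had 10374, 9521 and 8797 in WT and 5487, 8391 and 7270 in SCA1 KI. Library E nearly reached the lowest WT library while library A lay far below, and Shank2 fell to 73.7% (LFC −0.46, SE 0.13, adjusted p = 0.0254). This call was lost without WT library B (adjusted p = 0.0878), without WT library C (0.0692) or without SCA1 KI library A, where the LFC was −0.29 (0.0634), and with the cortex fitted on its own (0.0770).

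Homer1 links Shank to metabotropic receptors, and its gene also makes a short, activity-induced form (Homer1a) that uncouples these links. Counts per gene do not separate the forms. Homer1 stood at 10950, 15739 and 8152 in WT cortex and at 5190, 6501 and 5355 in SCA1 KI cortex. The WT libraries spread widely (mean 11614, SD 3837) with C the highest, and the 3 SCA1 KI libraries were all lower. Homer1 fell to 48.9% of WT (LFC −0.99, SE 0.19, adjusted p = 0.00295). Without WT library C its LFC was −0.74, smaller in size than that of Shank1 in the same fit (−0.95). Immediate early genes, which neurons switch on with activity, were summed over 13 genes beside it. Their sum was 40894 to 68556 in WT cortex and 23936 to 30371 in SCA1 KI cortex. Of the 13, 5 were DEGs with lower levels, against 10.8% of all tested genes. Arc, an early gene whose protein acts at the same synapses, stood at 9641, 14995 and 8367 in WT libraries B, C and D, the order of Homer1, and at 4176, 4421 and 3654 in SCA1 KI libraries A, E and F. The part of early gene activity in the Homer1 result was not tested.

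**Figure D2:**
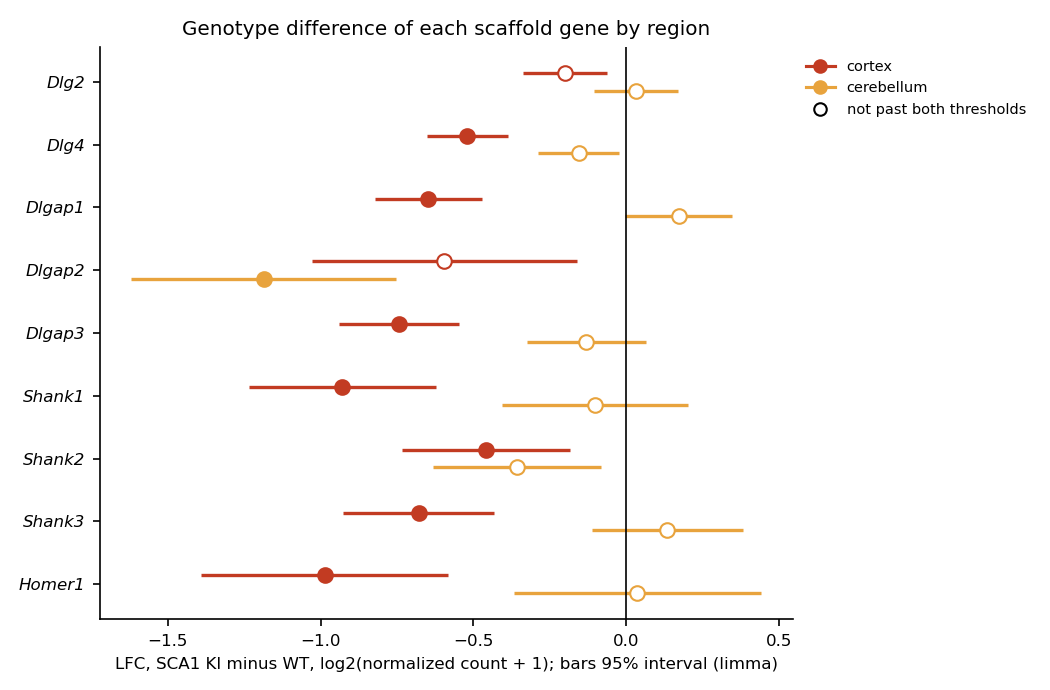
LFC of SCA1 KI minus WT on the log2(normalized count + 1) scale (horizontal axis) for each scaffold gene, in the cortex and the cerebellum, with 95% intervals from limma. Filled circles are DEGs. All 9 cortical values are below 0, from −0.99 for Homer1 to −0.20 for Dlg2, and in the cerebellum Dlgap2 is the only filled circle, at −1.19.

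In the cerebellum 1 scaffold, Dlgap2, fell, against 4.44% of all tested genes that were DEGs with lower levels, and 0 rose, against 0.917%. The median LFC of the scaffolds was −0.10 and that of all genes −0.0049. The highest SCA1 KI library was under the lowest WT library for 3 scaffolds, against 17.5% of all genes. For 1, Dlgap1, the lowest SCA1 KI library was above the highest WT library. The share of all genes with that reverse order was not counted.

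Dlgap2 stood at 233, 115 and 151 normalized counts in WT cerebellum libraries 2, 4 and 6 and at 78, 60 and 72 in SCA1 KI libraries 1, 3 and 5. The lowest WT library was above the highest SCA1 KI library, and WT library 2 stood apart from the other WT libraries. Dlgap2 fell to 42.0% of WT (LFC −1.19, SE 0.20, adjusted p = 0.00391), and it was called in 21 of 21 fits, with LFCs from −1.42 to −0.91. At its WT cerebellar mean of 166 it was a gene of low abundance there, against 4052 in WT cortex.

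Markers of other brain regions moved with Dlgap2 in the same libraries. Tcf7l2, a transcription factor of thalamic neurons, stood at 2404, 1480 and 2051 in WT cerebellum libraries 2, 4 and 6 and at 223, 210 and 249 in SCA1 KI libraries 1, 3 and 5. Slc17a6, the vesicular glutamate transporter of thalamic and brainstem neurons, stood at 6803, 2878 and 3911 and at 982, 1117 and 1310. Both genes and Dlgap2 shared the order 2, 6, 4 of the WT libraries. WT library 2 was the highest WT library for 37.7% of all tested genes. The sum of 9 oligodendrocyte markers had the same order, at 271994, 202194 and 181506, against 155587 to 155903 in SCA1 KI. Of these 9, 1 was a DEG with lower levels and 0 with higher levels. Of 9 tested midbrain and hindbrain markers, 4 were DEGs with lower levels in the SCA1 KI cerebellum, and their list summed to 1630 to 2038 in WT and 960 to 1267 in SCA1 KI, and for 7 thalamic markers, 3 of which were such DEGs, the sums were 31611 to 34551 and 25194 to 27085. The 9 markers of cortical excitatory neurons, some of which granule cells also express, summed to 18996 to 25361 in WT cerebellum and 25825 to 28535 in SCA1 KI cerebellum. Most of that sum was Slc17a7, at 11695 to 19972, and Neurod2, at 4118 to 5931. Of the 9, Rorb was lower in SCA1 KI cerebellum (LFC −0.49, adjusted p = 0.0410) and Tbr1 higher (0.58, 0.0220), the latter at 23 to 46 counts. The defining genes Emx1 (0 to 6) and Fezf2 (0 to 1) were near 0 in both genotypes. Some other forebrain markers fell in the SCA1 KI cerebellum, where 4.44% of all tested genes were DEGs with lower and 0.917% with higher levels. Of 9 forebrain interneuron markers 3 fell, Vip (LFC −5.47), Sst (−3.29) and Npy (−0.71), and 0 rose. Of 11 striatal markers 2 fell, Tac1 (−4.02) and Drd1a (−1.52), and 0 rose, while 0 of 7 hippocampal markers were called. Purkinje cell markers summed to 313213 to 393250 in WT and 284609 to 319092 in SCA1 KI, with 3 of 10 lower. Astrocyte markers summed to 229093 to 245128 and 191055 to 195357, with 2 of 8 lower. On neither list did a marker rise. Choroid plexus sums overlapped (37832 to 120742 and 7338 to 123602), with 0 of 8 called. The part of RNA from other regions or of cell composition in the Dlgap2 difference was not tested.

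**Figure D3:**
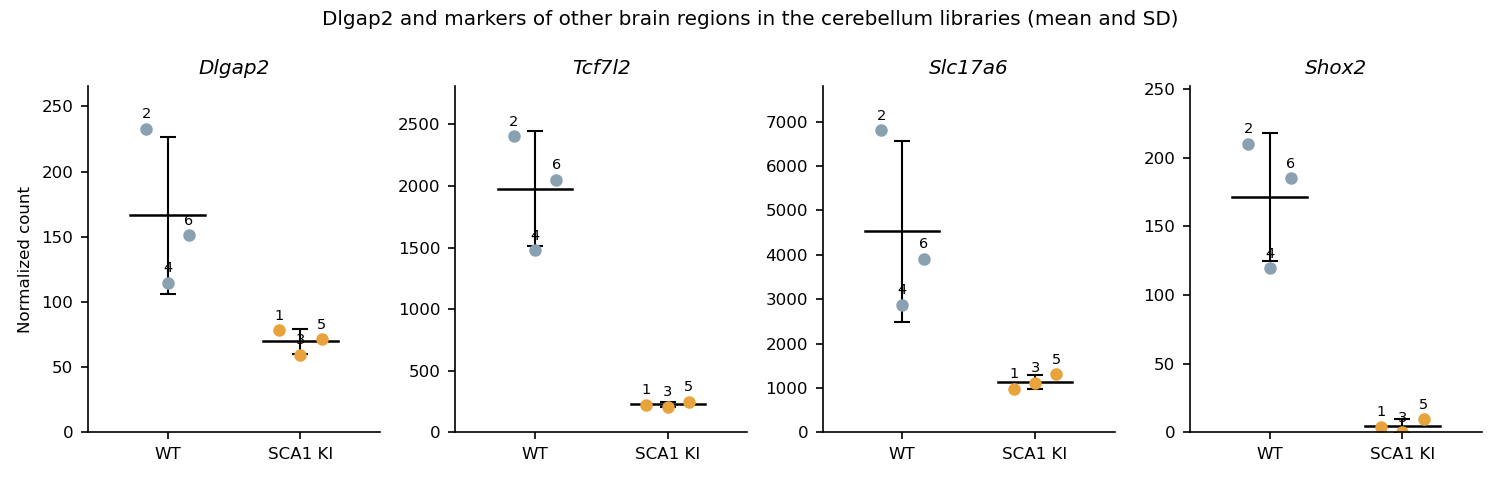
Normalized counts in the 6 cerebellum libraries (vertical axes, from 0) of Dlgap2 and of 3 genes that mark other brain regions, Tcf7l2, Slc17a6 and Shox2. Points are libraries with their number, bars the mean and SD of 3. In all 4 panels WT library 2 is the highest, WT library 4 the lowest WT library, and every SCA1 KI library lies below it.

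The other scaffolds did not pass the threshold in the cerebellum. Shank2 stood at 8104, 9232 and 9491 in WT and at 7133, 7347 and 6434 in SCA1 KI. The groups did not overlap, and its LFC of −0.36 (SE 0.13) had an adjusted p of 0.143, which passed when the cerebellum was fitted on its own (0.0350) or when SCA1 KI cortex library A was left out of the common fit (0.0265). Dlg4 had 13089, 13574 and 14122 in WT and 12488, 12057 and 12093 in SCA1 KI, again without overlap, with an LFC of −0.15 and a 95% interval of −0.29 to −0.02 (adjusted p = 0.198). Dlgap1, at 14313, 18144 and 17460 in WT and 19077, 18337 and 18558 in SCA1 KI, was the scaffold with all SCA1 KI libraries above WT. Its LFC of 0.17 (adjusted p = 0.299) was not a call.

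Shank3 overlapped between genotypes, at 8472, 10249 and 11258 in WT cerebellum and 12130, 10913 and 9778 in SCA1 KI cerebellum, with an interval of the LFC of −0.11 to 0.38. Homer1 stood at 1977, 2555 and 2086 and at 2122, 2505 and 2142, and the interval of its LFC was −0.37 to 0.44. The groups of Dlg2, Shank1 and Dlgap3 overlapped too, with LFCs of 0.03, −0.10 and −0.13. For each of these 5 genes the whole 95% interval lay above the LFC estimated in the cortex, which leaves out the error of the cortical LFC. For Dlg2 the intervals of the 2 regions overlapped (−0.34 to −0.06 in the cortex, −0.11 to 0.17 in the cerebellum). A p above the threshold does not show that the cerebellum was unchanged.

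Whether the genotype difference itself differed between regions was tested with the region by genotype interaction (cortical LFC minus cerebellar LFC, adjusted p under 0.05). It was negative past the threshold for 6 scaffolds, against 4.89% of all genes, and positive past it for 0, against 3.26%. Homer1 had −1.02 (SE 0.26, adjusted p = 0.0315), Shank1 −0.83 (SE 0.20, 0.0223), Dlgap1 −0.82 (SE 0.11, 0.00116) and Shank3 −0.81 (SE 0.16, 0.00798). Dlgap3 had −0.61 (SE 0.13, 0.0106) and Dlg4 −0.37 (SE 0.09, 0.0204). Dlg2 had −0.23 (adjusted p = 0.150) and Shank2 −0.10 (0.805), and Dlgap2 was the only scaffold with a positive value, 0.59 (0.254), which did not pass. Dlgap1, Shank3 and Dlgap3 passed in every fit that left out 1 library. Homer1 lost the call in 8 of these 12 fits and Shank1 in 4, and without cerebellum SCA1 KI library 1, which also took Dlg4 under the threshold, 3 scaffolds passed.

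In WT mice 8 of the 9 scaffolds were higher in the cortex than in the cerebellum, against 31% of all genes, and 0 were lower, against 30.7%. Dlgap2 differed most, with a WT mean of 4052 ± 312 normalized counts in the cortex and 166 ± 60 in the cerebellum (SD, n = 3), an LFC of 4.66 (SE 0.20, adjusted p = 5.27e-10). Homer1 (LFC 2.35) and Dlgap3 (2.20) followed, then Dlg4 (1.45), Shank1 (1.33), Dlgap1 (1.18), Shank3 (0.50) and Dlg2 (0.39). Shank2 was the exception, with 9564 ± 789 in the cortex and 8942 ± 738 in the cerebellum and an LFC of 0.10 (95% interval −0.18 to 0.37).

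In SCA1 KI mice the estimated gap between the regions was smaller than in WT for 8 of the 9, of which 6 passed the interaction test above. There 6 scaffolds were higher in the cortex, against 32% of all genes, and 1 was lower, against 30.5%. Shank3 was the gene that changed side, with 8839 ± 1165 in the cortex and 10940 ± 1176 in the cerebellum (LFC −0.31, SE 0.11, adjusted p = 0.0280). Its libraries overlapped, and this call was lost without cortex library A (0.103) or F (0.0825) or cerebellum library 1 (0.121) or 3 (0.0627). The LFC between the regions was 1.33 for Homer1, 0.50 for Shank1 and 0.36 for Dlgap1, each under its WT value, and for Dlgap2 it was 5.25. Shank2 was level between the regions (95% interval −0.28 to 0.27), and Dlg2, with an LFC of 0.15, stayed under the limit.

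Over the 4 groups, WT cortex had the highest mean of all 9 scaffolds. For Dlg4 and Dlgap2 the order was WT cortex, SCA1 KI cortex, WT cerebellum and SCA1 KI cerebellum, with no overlap between neighbours, and Dlgap1 had the cerebellar groups the other way round, also without overlap. For Shank1 the SCA1 KI cortex overlapped WT cerebellum, and for Shank2 every pair of neighbours overlapped. Shank3 was lowest in the SCA1 KI cortex, whose libraries overlapped those of WT cerebellum but not those of WT cortex.

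Levels of different genes were compared only per kilobase of exon, with every base counted that lies in an exon of any annotated transcript. This length was 13251 bases for Dlg4, 11976 for Homer1 and 4521 for Dlgap3. Where the expressed transcripts are shorter, the value is too low, so the order of genes depends on the annotation. In WT cortex Dlgap3 was highest, with 4272 ± 93 normalized counts per kilobase (SD, n = 3), followed by Dlg4 with 2805 ± 94 and Shank1 with 2475 ± 227, which overlapped. Dlgap1 (2102), Shank3 (1532) and Dlg2 (1418) came next without overlap, then Homer1 (970) and Shank2 (888), which overlapped, and Dlgap2 was lowest with 659. In the SCA1 KI cortex Dlgap3 still led with 2561 ± 276 and Dlg4 was second with 1959 ± 147, while Dlgap1, Shank1 and Dlg2 followed with 1343, 1323 and 1235, the neighbours among them overlapping. In WT cerebellum the 7 highest genes, Shank3, Dlg2, Dlg4, Shank1, Dlgap3, Dlgap1 and Shank2, lay between 830 and 1088 per kilobase and each overlapped the next in order, whereas Homer1 (184) and Dlgap2 (27.1) were far below. In the SCA1 KI cerebellum Shank3 (1191) and Dlg2 (1110) led and overlapped, and Homer1 (188) and Dlgap2 (11.4) were again last.

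The SCA1 KI cortex libraries differed from each other in a shared way. Library A was the lowest of the 3 for 9 of 9 scaffolds and library E the highest for 9 of 9. Over all genes A was the lowest for 42.8% and E the highest for 32.6%. The order A, F, E from low to high was not particular to the scaffolds. It also held for the summed further family members (29604, 32520 and 35101) and PSD-95 binding regulators (183040, 193141 and 210116) described below. Receptors (135870, 147184 and 161939) and astrocyte markers (153443, 202287 and 216248) had it too. Palmitoylation enzymes and cortical excitatory markers did not, each with library F the lowest. Against the WT mean of each gene, the median deviation of the 9 genes was −0.80 in library A, −0.64 in F and −0.47 in E on the log2 scale. The median over all genes was −0.019 in A, −0.0080 in F and −0.0043 in E. The range within the SCA1 KI cortex was widest for Shank1, from −1.33 in A to −0.62 in E. Leaving out library A gave a median LFC of −0.60 for the scaffolds, and leaving out library E gave −0.69.

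**Figure D4:**
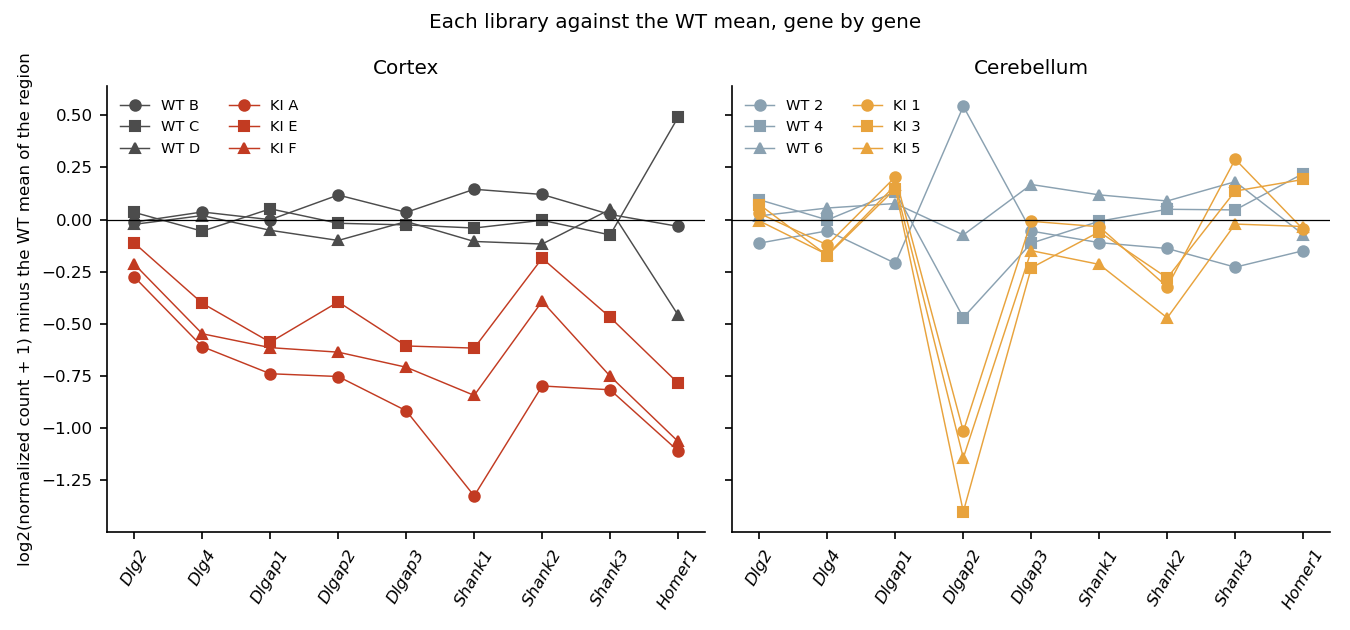
Log2(normalized count + 1) of each library minus the WT mean of its region (vertical axis) for the 9 scaffold genes (horizontal axis), in cortex and cerebellum. Lines join the values of 1 library. In the cortex the line of SCA1 KI library A is the lowest and that of E the highest SCA1 KI line at every gene, and in the cerebellum the lines cross, with Dlgap2 as the gene where the genotypes separate most.

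In the cerebellum no library held such a place in every gene. WT library 2 was the lowest WT library for 7 of 9 scaffolds, against 42.0% of all genes, and the highest for Dlgap2. SCA1 KI library 1 was the highest SCA1 KI library for 6 of 9, against 34.3% of all genes. WT library 2 also had the lowest sum of granule cell markers, 160523, and it had the highest levels of Tcf7l2 and Slc17a6.

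Other genes of the excitatory postsynaptic density were described from lists. Of 6 further family members tested, 4 fell in the cortex and 0 rose, with a median LFC of −0.29. Homer2, a long-form relative of Homer1, stood at 4562, 4879 and 4661 in WT and at 2951, 3717 and 3750 in SCA1 KI (LFC −0.44, adjusted p = 0.00346). Dlg1 (SAP97) had an LFC of −0.32 (0.0113), Dlgap4 of −0.29 (0.0261) and Homer3 of −0.30 (0.0441), and the last 2 kept the call in 16 and 9 of 22 fits. In the cerebellum Homer3, the Homer of Purkinje cells, fell from 10273, 13401 and 12873 in WT to 9422, 9614 and 8991 in SCA1 KI (LFC −0.37, adjusted p = 0.0346), a call kept in 15 of 22 fits, and the median of the list was 0.08.

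Of 22 regulators that bind PSD-95 or its partners, 14 fell in the cortex and 0 rose, with a median LFC of −0.47. Kalrn, a guanine nucleotide exchange factor that enlarges spines, stood at 33217, 31585 and 31746 in WT cortex and at 16871, 18614 and 15356 in SCA1 KI cortex (LFC −0.93, adjusted p = 6.96e-06). Library E was again the highest of the SCA1 KI libraries. Lzts3, a Shank3-binding protein, had an LFC of −0.99 (adjusted p = 1.60e-05), Sipa1l1, a Rap GTPase-activating protein of spines, of −0.89 (1.43e-05) and Arc of −1.39 (1.97e-04). In the cerebellum 3 fell, Kalrn (LFC −0.54, adjusted p = 6.10e-04), Begain (−0.80, 0.00406) and Lrrc7 (densin-180, −0.97, 0.00566), and 0 rose. Begain and Lrrc7, like Dlgap2, were highest in WT library 2 of the cerebellum, at 1459 and 494. That library was the highest WT cerebellum library for 37.7% of all tested genes.

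Receptors and adhesion proteins held by the scaffolds fell in 9 of 19 cases in the cortex, with 0 higher and a median LFC of −0.28. Grin2a, an NMDA receptor subunit, stood at 2082, 1718 and 1712 in WT cortex and at 689, 975 and 718 in SCA1 KI cortex (LFC −1.22, adjusted p = 3.28e-05). Itpr1, the inositol trisphosphate receptor bound by Homer, had a cortical LFC of −0.82 (1.55e-04), and the AMPA receptor subunits Gria3 and Gria4 had −0.59 (5.27e-05) and −0.41 (4.45e-04). In the cerebellum 3 of 19 fell and 0 rose. Grm5, a metabotropic receptor tethered by Homer, had 2720, 1373 and 1784 in WT cerebellum libraries 2, 4 and 6 and 567, 575 and 617 in SCA1 KI libraries 1, 3 and 5 (LFC −1.68, adjusted p = 1.92e-04), and its WT libraries had the order of Dlgap2 and Tcf7l2. Cacng3 and Gria3 had cerebellar LFCs of −0.57 (0.00546) and −0.36 (0.00467).

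Of 14 other PDZ and linker scaffolds, 2 fell in the cortex and 1 rose, with a median LFC of −0.18. Synpo, the actin-binding synaptopodin of the spine apparatus, fell in both regions (cortical LFC −0.87, adjusted p = 1.71e-05, and cerebellar LFC −0.75, 1.16e-04), Magi2 fell in the cortex (−0.31, 0.00861), Sharpin, a Shank-binding protein, rose there (0.27, 0.0105) and Grip2 fell in the cerebellum (−0.86, 0.00546). Of 9 enzymes that add palmitate to PSD-95 or remove it, 3 fell in the cortex, Zdhhc8 (−0.70, 1.85e-04), Abhd17a (−0.40, 0.00118) and Zdhhc2 (−0.38, 0.00722), with a median LFC of −0.13, and 1 fell in the cerebellum, Zdhhc15 (−0.51, 0.0163). Among scaffold genes of inhibitory synapses, Insyn1 (in the table as 6030419C18Rik) fell in the cortex (−0.45, 0.00103), and Insyn2a (Fam196a) fell in the cerebellum (−1.07, 0.00640). The lists share the background of 10.8% lower and 4.82% higher in the cortex and 4.44% and 0.917% in the cerebellum, and Arc is also on the list of immediate early genes.

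**Figure D5:**
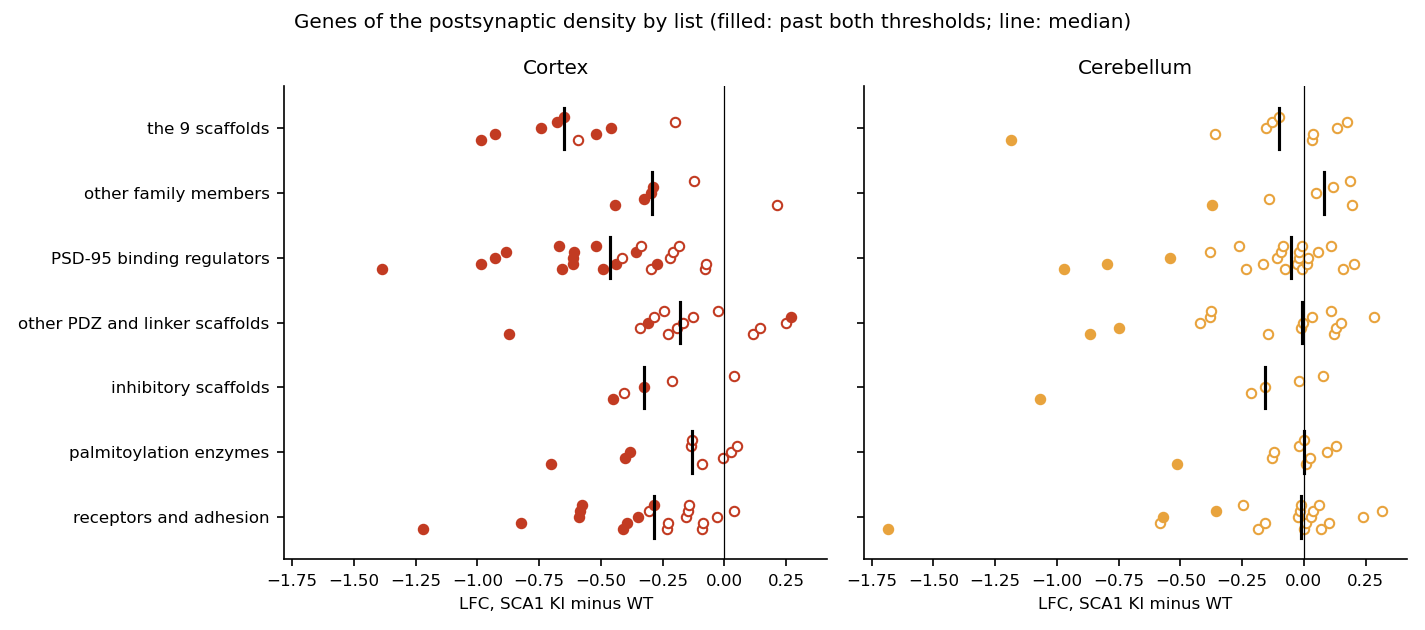
LFC of SCA1 KI minus WT (horizontal axis) for the 9 scaffolds and 6 lists of other postsynaptic genes, in the cortex and the cerebellum. Circles are genes, filled where they were DEGs, and black lines the median of each list. In the cortex the scaffolds (median −0.65) and the PSD-95 binding regulators (−0.47) lie furthest below 0, and in the cerebellum the medians of all 7 rows lie between −0.16 and 0.08.

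Markers of cell types were set beside the cortical result. Of all tested genes, 10.8% were DEGs with lower and 4.82% with higher levels in the SCA1 KI cortex. Lists with 1 of 7 or 2 of 11 lower are near that share. Markers of cortical excitatory neurons summed to 93507 to 95187 in WT cortex and 63150 to 75628 in SCA1 KI cortex, and 3 of 9 were DEGs with lower levels, Cux2, Rorb and Slc17a7. The other 6, among them Emx1, were not, and Emx1 stood at 859, 802 and 1143 in WT and 915, 667 and 524 in SCA1 KI. Markers of midbrain and hindbrain summed to 484 to 618 in WT and 1077 to 1986 in SCA1 KI cortex, and 3 of 9 tested were DEGs with higher levels, Pou4f1, Tal1 and Shox2. Pou4f1 stood at 4, 2 and 7 in WT and 372, 225 and 217 in SCA1 KI, with library A the highest. Forebrain interneuron markers summed to 37032 to 39361 in WT and 26560 to 35721 in SCA1 KI, with 3 of 9 lower (Npy, Pvalb and Gad1). Hippocampal markers summed to 4443 to 5220 and 2096 to 3081, with 1 of 7 lower (Wfs1, LFC −1.04, adjusted p = 1.19e-04), and thalamic markers to 8951 to 9914 and 6686 to 8425, with 1 of 7 lower (Rora). Striatal markers summed to 13752 to 28680 and 9141 to 16596, with 2 of 11 lower (Ppp1r1b and Penk), and the sums of choroid plexus markers were 10069 to 13140 and 7703 to 7951, with 0 of 8 called. Microglial (15750 to 17548 and 16032 to 16393), oligodendrocyte (83914 to 140386 and 88604 to 102967) and endothelial sums (9308 to 10437 and 7733 to 9605) overlapped between genotypes, with 0 called. Astrocyte markers summed to 298579 to 300844 in WT and 153443 to 216248 in SCA1 KI, with 6 of 8 lower. The part of cell composition or of the dissection in the cortical difference of the scaffolds was not tested.

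Transcript properties moved with the cortical LFC. With each comparison's trend on exon length and GC content removed, the scaffolds kept negative LFCs in the cortex, from −0.94 for Homer1 to −0.08 for Dlg2, with a median of −0.46. The shift was largest for Shank1 and Shank3, for which the trend alone gave −0.23 and −0.22. Their transcripts are rich in GC (61.4% and 62.4%), but the shifts did not follow GC content alone. Dlgap3 had the highest GC content (63.9%) and a trend of −0.14, whereas Dlgap1 (50.9%) had −0.19 and Shank2 (55.0%) had −0.18. Shank1 shares 339 exonic bases with 1700008O03Rik on the opposite strand, and strand was not stated for the counting, so reads there cannot be assigned to either gene.

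For each scaffold the gene with the most similar pattern was sought by Pearson correlation over the 12 libraries after the mean of each region had been removed. The points share genotype, library and region, so the values describe likeness only. The closest genes were Olfm3 for Dlg2 (0.978), Diap1 for Dlg4 (0.980), Gm9899 for Dlgap1 (0.986), Chrm3 for Dlgap2 (0.988), Dnajc16 for Dlgap3 (0.982), Farp1 for Shank1 (0.990), Nlgn2 for Shank2 (0.976), Mllt1 for Shank3 (0.981) and Fam53b for Homer1 (0.983). Chrm3 was a DEG with lower levels in either region, whereas Dlgap2 was one in the cerebellum alone, and the LFC of Chrm3 was −0.96 for the cortex (adjusted p = 0.0152) and −1.60 for the cerebellum (0.00183). Second for Homer1 was Cacng2, which encodes the AMPA receptor partner stargazin (0.974).

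By position (GENCODE vM21, GRCm38, all on the plus strand), 3 of the scaffolds lie on chromosome 7, namely Shank1 from 44310253 to 44360572, Dlg2 from 90476672 to 92449247 and Shank2 from 144001928 to 144424494. The others are Dlg4 on chromosome 11 from 70016942 to 70047522, Dlgap1 on chromosome 17 from 69969073 to 70821413, Dlgap2 on chromosome 8 from 14095865 to 14847680, Dlgap3 on chromosome 4 from 127169204 to 127237022, Shank3 on chromosome 15 from 89499623 to 89560261 and Homer1 on chromosome 13 from 93299635 to 93405129. Their exons in this annotation cover 4521 bases for Dlgap3 to 17890 bases for Dlgap1. Counts per gene do not separate isoforms, and the annotation used for the counting is not given in the sources used here.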

How the data were processed

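Poly-adenylated RNA of whole cortex and cerebellum was sequenced with 75 bp paired-end reads. The authors used STAR for alignment to mm10 and featureCounts for counting, and deposited DESeq2-normalized counts per gene, a signal equal to reads divided by a size factor per library. Versions and the strand setting are not given in the sources used here. Dividing by the value of 1 read gave whole reads for 100% of values (tolerance 0.01), at 29520855 to 51311309 per library. No 2 libraries of a group were alike within sampling noise (7.54 to 36.6 as chi-square per gene), so none was counted as a copy. Nothing used here says whether libraries of a group came from separate mice, so p-values measure the spread between these libraries.

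The main test was limma 3.58.1 (R 4.3.3, empirical Bayes with trend) on log2(normalized count + 1), over 12 libraries and 4 group means, for 15369 genes with a mean of at least 10. DEGs needed an absolute LFC over 0.25 and a Benjamini-Hochberg adjusted p under 0.05, and the interaction used the adjusted p alone. A pseudocount of 1 understates the LFC of low genes. Exon lengths are the union of exons over all transcripts of a gene in GENCODE vM21 (GRCm38), which matched 15604 of 15759 rows. Promoter windows are from RefSeq (GRCm38.p6).

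All 9 scaffolds are named, and from each list of related genes up to 4 DEGs with the smallest adjusted p. A gene that meets this rule is not reported here. Other genes (Emx1, Fezf2 and Tbr1 among them) were chosen after their values were seen. The scaffolds and lists were chosen with earlier results of these data known. Alternatives were 2 other pseudocounts (0.5 and 5), the filter left out or raised to 100, centring on the region median, each region on its own, edgeR 4.0.16 and DESeq2 1.42.0 on recovered reads, other limits on the LFC (none, and 1), removal of the trend on length and GC content (splines with 4 degrees of freedom, 15221 genes), and leaving out each of 12 libraries. The code was tested on simulated data.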

Additional observations from a re-analysis of the deposited data

Results flagged for a closer look

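The genotype LFC differed between cortex and cerebellum, by the interaction term in limma, for 6 scaffolds, and each was more negative in the cortex. The difference of the LFCs was −0.37 for Dlg4 (adjusted p = 0.0204), −0.83 for Shank1 (0.0223), −0.81 for Shank3 (0.00798), −1.02 for Homer1 (0.0315), −0.82 for Dlgap1 (0.00116) and −0.61 for Dlgap3 (0.0106). Of these, Dlgap1, Shank3 and Homer1 had a cerebellar LFC above 0 (0.17, 0.13 and 0.038), none of which passed the threshold. Groups of 3 libraries are too small for a test of single outlying libraries.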

How the results depend on the processing

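No paired analysis was possible because the library columns carry letters or numbers of their own and no replicate number of the labels. In the cortex 6 to 8 scaffolds were lower when 1 library was left out, and 0 passed an LFC limit of 1. In the cerebellum 1 to 2 were lower when 1 library was left out, and 2 (Shank2 and Dlgap2) with the region fitted on its own. The negative interaction held for 3 to 6 scaffolds when 1 library was left out, the fewest without cerebellum SCA1 KI library 1, and Dlg4 narrowly missed with the length and GC trend removed (adjusted p = 0.0501). The scaffold lower in the SCA1 KI cortex than in the SCA1 KI cerebellum was lost at an LFC limit of 1 (0) and numbered 0 to 1 when 1 library was left out.

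Values that changed sign were small and passed no threshold. For Shank2 the LFC between regions in SCA1 KI became 0.0050 with edgeR, 0.017 with DESeq2, 0.091 with the length and GC trend removed and −0.14 to 0.17 when 1 library was left out, and its interaction became 0.013 with that trend removed and −0.24 to 0.069 when 1 library was left out. The cerebellar LFC became 0.018 for Dlgap3 with the trend removed, and when 1 library was left out it ran from −0.040 to 0.15 for Homer1 and from −0.025 to 0.079 for Dlg2. The cause of these changes was not tested. Over all alternatives, 211 counts of scaffolds past the thresholds equalled the main count or stayed near it, and the 9 that did not are those counts above. Among LFCs of single scaffolds, 35 lost a call, 10 gained one and 12 changed sign, and 11 medians of the scaffolds moved. The other 1024 LFCs and medians were labelled the same. Over 22 fits the genes lower in the cortex numbered 1 to 4 of the further family members, 11 to 16 of the PSD-95 binding regulators, 6 to 10 of the receptors, 1 to 3 of the other PDZ and linker scaffolds and 3 to 8 of the immediate early genes. Dlgap2 in the cerebellum had 60 to 233 counts per library, which limits its precision.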
